A study of Mus musculus with 19 samples.

Results

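Homeostatic microglia genes are transcripts that resting microglia of the healthy brain hold at high level. 9 of them, P2ry12, P2ry13, Tmem119, Cx3cr1, Csf1r, Sall1, Siglech, Gpr34 and Olfml3, were taken by symbol and Ensembl identifier from the count files of all 19 libraries and followed in young mice, old control mice and old mice treated with microRNA inhibitors. The count files held 48709 genes, of which 19286 had enough reads to be tested, and 9 of the 9 homeostatic genes were among those. RNA sequencing of polyadenylated RNA was done on microdissected CA1 (cornu ammonis 1) of the dorsal hippocampus from male wild-type C57B/6J mice. 6 young mice were 3 months old, and 6 old control and 7 old anti-miR-mix mice were 16.5 months old. In each of the 3 groups lipid nanoparticles had been injected into the dorsal hippocampus, by the study's methods. The study also put mice of these 3 groups through memory training, and its text does not state whether the sequenced mice were among them. The particles carried control oligonucleotides in the young and old control groups, and an inhibitor each against miR-148a-3p, against miR-146a-5p and against miR-181a-5p (together the anti-miR-mix) in the old anti-miR-mix group. No group without an injection, and no young group with the inhibitors, was part of these files, and bulk CA1 holds neurons, astrocytes, oligodendrocytes and vessels beside microglia.

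Microglia are the resident macrophages of the brain. In the undisturbed tissue they survey their surroundings with fine processes, a state that depends on signals from neighbouring cells, among them CSF1 and IL-34 acting on the receptor CSF1R, fractalkine (CX3CL1) released by neurons and acting on CX3CR1, nucleotides sensed by P2Y receptors, and transforming growth factor β. When microglia meet damage or amyloid, they are known to reduce several homeostatic transcripts while they raise a set called disease-associated microglia genes, such as Cst7 and Itgax.

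The 3 inhibited microRNAs are shown here because their seed, the stretch from base 2 to base 8 that pairs with target transcripts, was searched for in the 3′ untranslated region (UTR) of each homeostatic gene. Mature sequences were taken from RefSeq on GRCm38.p6, and capitals mark the seed. Mir146 lies on chromosome 11, Mir148a on chromosome 6, and miR-181a-5p comes from Mir181a-1 on chromosome 1 and Mir181a-2 on chromosome 2. The 3 seeds differ from each other.
mmu-miR-146a-5p: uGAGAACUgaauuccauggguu
mmu-miR-148a-3p: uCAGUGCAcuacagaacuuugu
mmu-miR-181a-5p: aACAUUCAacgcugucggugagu

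A site for at least one seed was present in the longest annotated 3′ UTR of P2ry13, Csf1r, Siglech and Olfml3, and no match to the searched letters was found in those of P2ry12, Tmem119, Cx3cr1, Sall1 and Gpr34. Transcripts were those of GENCODE M21 on GRCm38, and only the sense strand was read. Sites of miR-146a-5p (AGTTCTC) were in 3 members, against 13.4% of the 15377 tested genes with an annotated 3′ UTR. Those of miR-148a-3p (TGCACTG) were in 2 members against 16.3%, and those of miR-181a-5p (TGAATGT) in 0 members against 18.8%. The sites with their flanks are shown so that they can be set against the values of each gene given later, with the 7 bases that pair with the seed in capitals. The site of Csf1r is not printed. P2ry13 sites lie on the minus strand at chr3:59208114-59208140 and chr3:59207916-59207942, Siglech sites on the plus strand at chr7:55778502-55778528 and chr7:55777879-55777905, and the Olfml3 site on the minus strand at chr3:103735343-103735369, and 5 of these 5 are exonic, in the 3′ UTR.
P2ry13, miR-148a-3p, upstream: tggtccgcacTGCACTGtacatagaac
P2ry13, miR-148a-3p, downstream: ttgctaaataTGCACTGtgcaattaat
Siglech, miR-146a-5p: gctttgacttAGTTCTCctgagataaa
Siglech, miR-148a-3p: attctattccTGCACTGaagctgggcc
Olfml3, miR-146a-5p: ctctgatcagAGTTCTCgtggctctgc

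Libraries held between 26653511 and 38908947 counted reads, and no homeostatic gene had fewer than 292 reads in any library. The general identity of the tissue could be read from its markers: 12 CA1 pyramidal and pan-neuronal markers summed to between 10070 and 12240 CPM (counts relative to library size), against 338.6 to 846.7 CPM for 16 general microglia and macrophage markers and 291.5 to 480.6 CPM for the 9 homeostatic genes. Levels are given as log2 CPM after TMM scaling, so that a step of 1 is a doubling. In bulk tissue, fewer cells of a type and less RNA per cell cannot be told apart. A number from 1 to 4 for each library, called processing group here, was inferred from how the deposited log2 values differ from those of the counts. Its origin is not described, and group 3 had no old control library (2 young, 3 old anti-miR-mix). Old control replicates 5 and 6 were closer in their counts than any other pair of one group (chi-square per degree of freedom 2.18, against 6.10 for the next pair), so results were also computed with both summed to 1 library.

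Compared per transcript length, as RPKM (CPM divided by exon length in kilobases), Csf1r was the most abundant of the 9 genes, with a mean level of 22.8 RPKM over the 19 libraries and a lowest library at 17.6 RPKM. P2ry12 (17.6 RPKM), Cx3cr1 (15.1 RPKM) and Tmem119 (10.8 RPKM) followed. Gpr34 (7.40 RPKM), Sall1 (6.47 RPKM), Siglech (6.02 RPKM), P2ry13 (5.83 RPKM) and Olfml3 (4.04 RPKM) were lower. The ranges over libraries of each neighbouring pair in that order overlapped, while those of Csf1r and Cx3cr1 lay above those of Sall1 and Olfml3. The order given is that of the means, and the order within single libraries was not compared. Annotated exon length sets this scale, and that of Olfml3 (6161 bases) includes a long form whose use in CA1 was not tested.

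**Figure D1:**
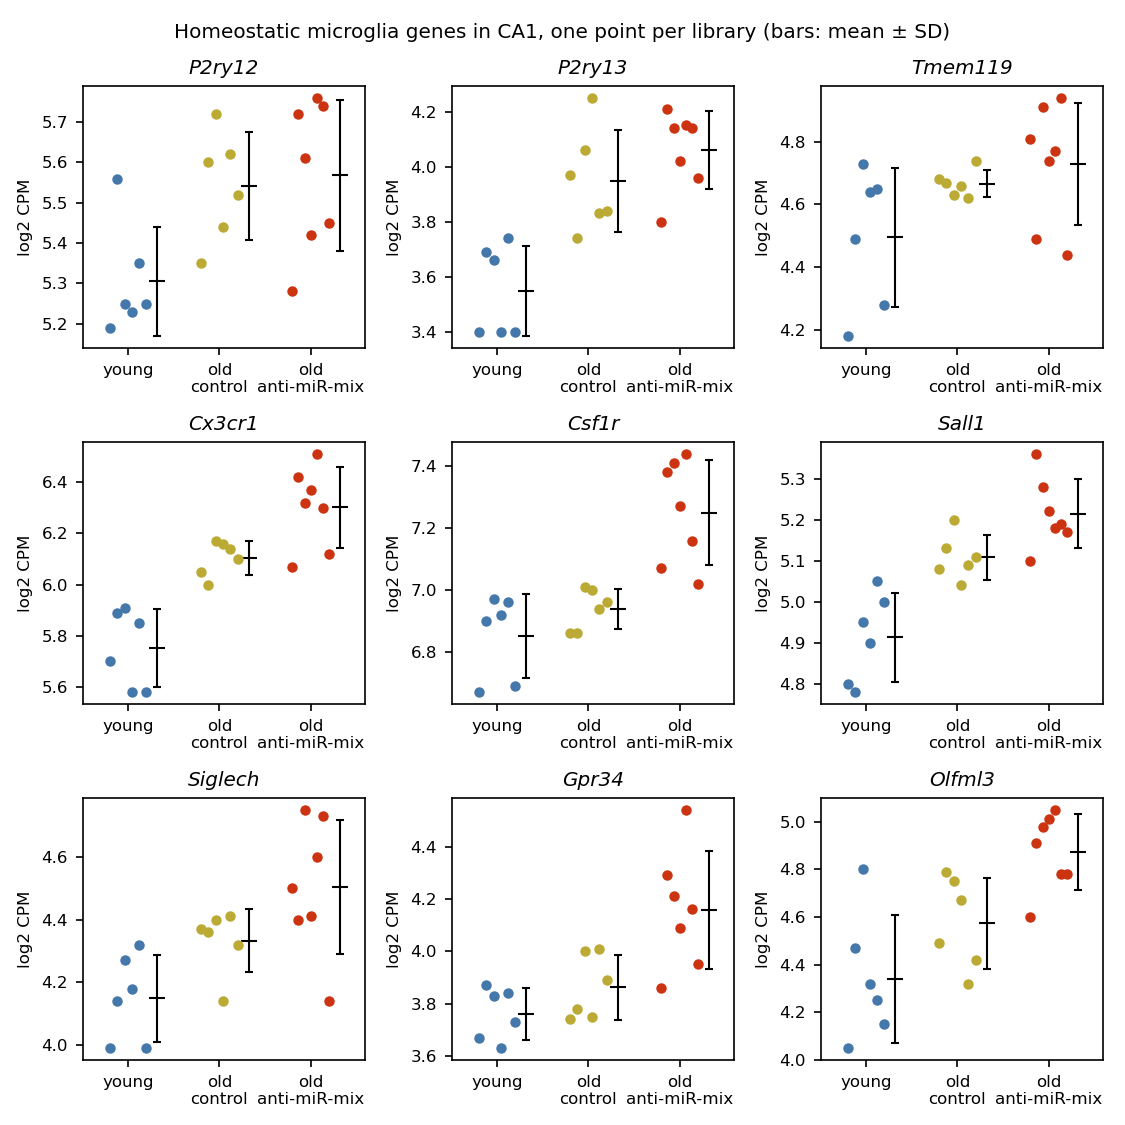
Level of each homeostatic gene in log2 CPM (vertical axes, which do not start at 0 and differ between panels) in young (6 libraries, blue), old control (6, yellow) and old anti-miR-mix mice (7, red), with 1 point per library and bars for the mean ± SD. On this scale the mean rises from young to old control to old anti-miR-mix in 9 of 9 genes. The share of all genes with that order was not computed, and fitted changes are above 0 in 52.2% of all genes for the first step and 50.2% for the second. Relative to general microglia markers the old anti-miR-mix mean is the lowest of the 3 groups in 9 of 9 (with counts scaled to these markers, the median log2 fold change of all genes is -0.52 against old control and -0.82 against young).

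The P2Y receptors come first. P2ry12 encodes the ADP receptor that steers microglial processes towards released nucleotides, and it lies on the minus strand of chromosome 3 (59216272 to 59262871, GRCm38) inside Med12l on the opposite strand, with 9 exon bases in common. Its level ran from 5.19 to 5.56 log2 CPM in young mice (median 5.25), from 5.35 to 5.72 in old control mice (median 5.56) and from 5.28 to 5.76 in old anti-miR-mix mice (median 5.61). The high young value was young replicate 2, and the low values of the old groups were replicate 1 of each, so all 3 groups overlapped. P2ry13, the neighbouring receptor gene on the same strand (59207892 to 59210882), carried the miR-148a-3p matches printed earlier. P2ry13 spanned 3.40 to 3.74 log2 CPM in young mice (median 3.53), 3.74 to 4.25 in old control mice (median 3.90) and 3.80 to 4.21 in old anti-miR-mix mice (median 4.14). Only the lowest old control library (replicate 2) reached the young range, and no old anti-miR-mix library did.

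Cx3cr1 encodes the fractalkine receptor and Csf1r the tyrosine kinase receptor on which microglial survival depends. Cx3cr1 (chromosome 9, minus strand, 119901616 to 120069879) measured 5.58 to 5.91 log2 CPM in young mice (median 5.77), 6.00 to 6.17 in old control mice (median 6.12) and 6.07 to 6.51 in old anti-miR-mix mice (median 6.32). Every old library was above every young library, and 5 of 7 old anti-miR-mix libraries were above all old control libraries. Csf1r (chromosome 18, plus strand, 61100598 to 61132149) measured 6.67 to 6.97 log2 CPM in young mice (median 6.91), 6.86 to 7.01 in old control mice (median 6.95) and 7.02 to 7.44 in old anti-miR-mix mice (median 7.27). Young and old control libraries overlapped, and 7 of 7 old anti-miR-mix libraries lay above all libraries of the other groups. The nearest were old anti-miR-mix replicate 7 (7.02) and old control replicate 3 (7.01), a narrow gap. The TruSeq v2 kit does not mark strand, and 873 exon bases of Csf1r (15.1% of its exon length) are shared with Hmgxb3 on the opposite strand, so reads from those bases cannot be assigned to either gene.

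Gpr34, a receptor for lysophosphatidylserine, lies on chromosome X (plus strand, 13632089 to 13640858) inside Cask on the opposite strand with 0 shared exon bases. Its levels were 3.63 to 3.87 log2 CPM in young mice (median 3.78), 3.74 to 4.01 in old control mice (median 3.84) and 3.86 to 4.54 in old anti-miR-mix mice (median 4.16). The highest library was old anti-miR-mix replicate 5 and the lowest of that group was replicate 1, which fell within the range of both other groups. Siglech, a sialic acid-binding lectin (chromosome 7, plus strand, 55768178 to 55778925), measured 3.99 to 4.32 log2 CPM in young mice (median 4.16), 4.14 to 4.41 in old control mice (median 4.36) and 4.14 to 4.75 in old anti-miR-mix mice (median 4.50). Old control replicate 4 and old anti-miR-mix replicate 7 stood at the bottom of their groups, inside the young range.

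Tmem119 encodes a membrane protein widely used to tell microglia from other macrophages (chromosome 5, minus strand, 113793729 to 113800516). Its young libraries ran from 4.18 to 4.73 log2 CPM (median 4.57), the old control libraries from 4.62 to 4.74 (median 4.66) and the old anti-miR-mix libraries from 4.44 to 4.94 (median 4.77). The old control group was narrow (SD 0.044) and the other groups wide (SD 0.22 and 0.19), and they overlapped. Olfml3, which encodes a secreted olfactomedin-like protein (chromosome 3, minus strand, 103722222 to 103738001), ran from 4.05 to 4.80 log2 CPM in young mice (median 4.29), 4.32 to 4.79 in old control mice (median 4.58) and 4.60 to 5.05 in old anti-miR-mix mice (median 4.91). Young replicate 3 was as high as the highest old control library, and the 3 groups overlapped. Sall1, the transcription factor that keeps microglial identity (chromosome 8, minus strand, 89027235 to 89044162), measured 4.78 to 5.05 log2 CPM in young mice (median 4.93), 5.04 to 5.20 in old control mice (median 5.10) and 5.10 to 5.36 in old anti-miR-mix mice (median 5.19). Sall1 had the narrowest spread of the treated group among the 9 genes (SD 0.084), and its treated libraries were all above the young ones.

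The first comparison asked how age changed these genes in mice given control oligonucleotides. P2ry13, Cx3cr1 and Sall1 rose with age, and 6 genes did not pass the test. Thus 3 of 9 homeostatic genes were called higher with edgeR at an adjusted p under 0.05, against 1.32% of all genes, and 0 were called lower with edgeR or DESeq2 or at an unadjusted p under 0.05. Cx3cr1 rose 1.27-fold (log2 fold change 0.35 ± 0.071, SE; edgeR adjusted p = 0.0108), and it was the 1 member whose groups did not overlap, a pattern of 1.25% of all genes in the higher direction. P2ry13 rose 1.32-fold (log2 fold change 0.41 ± 0.090, SE; edgeR adjusted p = 0.0188). For Sall1 the rise was 1.14-fold (log2 fold change 0.19 ± 0.049, SE; edgeR adjusted p = 0.0395). The other fitted log2 fold changes were 0.24 for P2ry12 (edgeR adjusted p = 0.12), 0.22 for Olfml3, 0.18 for Siglech, 0.15 for Tmem119, 0.10 for Gpr34 and 0.079 for Csf1r.

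The median log2 fold change of the 9 genes with age was 0.19, and that of all genes tested was 0.0064. Estimates were above 0 in 9 of 9 members, against 52.2% of all genes. With processing group as a factor, P2ry13, Cx3cr1 and Sall1 were again called (log2 fold changes 0.42, 0.39 and 0.21, edgeR adjusted p = 0.0134, 0.00638 and 0.0444), against 1.28% of all genes. Within processing groups 1, 2 and 4, the mean of the old control libraries was above that of the young in 9 of 9 genes each time, each from 2 old control and 1 or 2 young libraries. In groups 1 and 2 the same 1 young library served all 9 genes. The differences ran from 0.0018 log2 CPM (Gpr34, group 2) to 0.59 (Olfml3, group 1). The share of all genes above 0 within processing groups was not computed. Without young replicate 4, Cx3cr1 was the 1 gene called, and the adjusted p of P2ry13 was 0.0531. The call of Sall1 was lost in 8 of the 19 fits that left out 1 library (highest edgeR adjusted p 0.0805), and with old control replicates 5 and 6 as 1 library (0.0687).

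**Figure D2:**
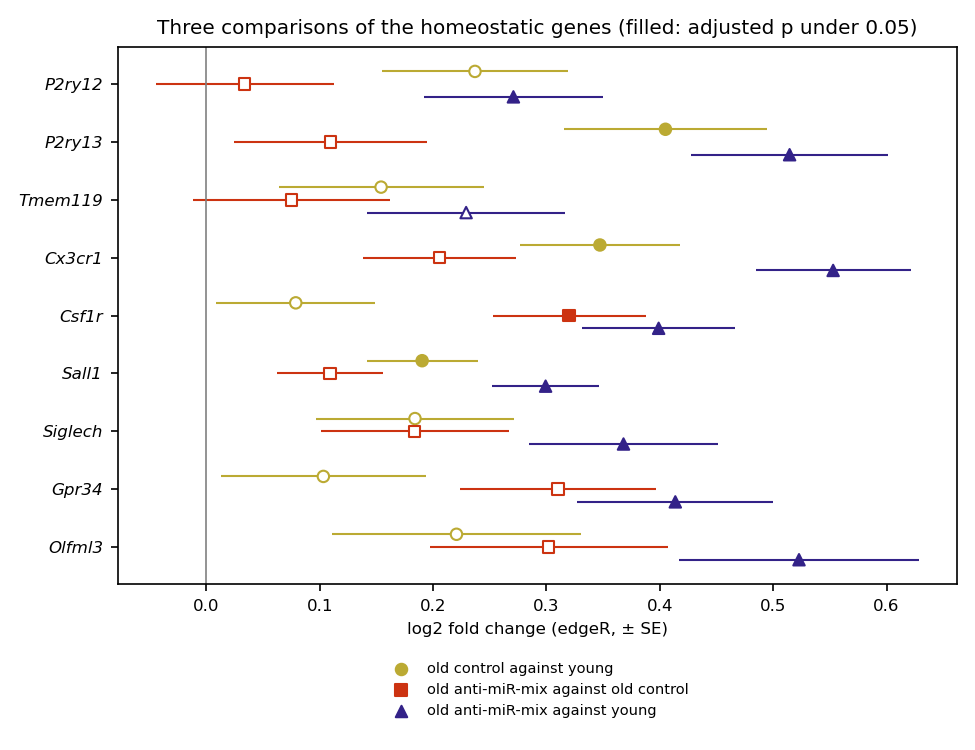
Log2 fold change with its SE (horizontal axis) of each homeostatic gene in old control against young (circles), old anti-miR-mix against old control (squares) and old anti-miR-mix against young (triangles), with filled symbols for an edgeR adjusted p under 0.05. 3, 1 and 8 of the 9 genes are filled, all of them higher, against 1.32%, 0.669% and 4.57% of all genes called higher. All 27 estimates are above 0 on the CPM scale, against 52.2%, 50.2% and 51% of all genes, and those of the third comparison are not independent of the others. The direction turns for 25 of them when counts are scaled to general microglia markers, a scale on which 12.4%, 76.5% and 87.3% of all genes are called lower.

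The second comparison asked what the inhibitors changed at the same age. Csf1r rose in the old anti-miR-mix mice, and 8 genes did not pass the test, so 1 of 9 genes was called higher with edgeR against 0.669% of all genes. Csf1r measured 1.25-fold above old control (log2 fold change 0.32 ± 0.067, SE; edgeR adjusted p = 0.0276), and groups that did not overlap in the higher direction were found for 0.425% of all genes. Gpr34 and Olfml3 had estimates of like size with a larger error (log2 fold changes 0.31 ± 0.086 and 0.30 ± 0.10, SE; edgeR adjusted p = 0.116 and 0.262). Cx3cr1 (0.21, edgeR adjusted p = 0.224), Siglech (0.18), P2ry13 (0.11), Sall1 (0.11), Tmem119 (0.075) and P2ry12 (0.034, edgeR adjusted p = 0.927) were lower on the same scale. No member was called lower by edgeR or DESeq2, and 0 were lower at an unadjusted p under 0.05. The 9 genes had a median log2 fold change of 0.18, against 0.00035 over all genes, with 9 of 9 estimates above 0 against 50.2%.

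The call of Csf1r rested on how the libraries were fitted. With processing group as a factor its log2 fold change was 0.22 (edgeR adjusted p = 0.203), and 0 of 9 genes were called (3 at an unadjusted p under 0.05), while 9 of all genes tested (0.0467%) were called higher. With processing group as a linear term Csf1r stayed the 1 member called, beside 93 of 19286 genes in all. The same held with limma on the deposited log2 values (144 of 18761 genes). Apart from libraries left out and marker scaling, 6 of 10 settings called Csf1r. Within processing groups 1, 2 and 4 the Csf1r difference in mean log2 CPM was 0.21, 0.20 and 0.21, from 1 or 2 treated and 2 old control libraries each. The number of members above old control was 5, 6 and 9 of 9 in those groups, and the share of all genes was not computed there. The adjusted p of Csf1r rose above 0.05 when old control replicate 1, 2, 5 or 6 or old anti-miR-mix replicate 2, 3, 4 or 5 was left out (edgeR, 0.0675 to 0.0907), and was 0.0712 with old control replicates 5 and 6 as 1 library. DESeq2 called Csf1r and Gpr34 (Gpr34 adjusted p = 0.0465).

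The third comparison, of old anti-miR-mix with young mice, shares its libraries with both others, so its values are not independent of them. 8 of 9 homeostatic genes rose, against 4.57% of all genes called higher by edgeR, and 4 (P2ry13, Cx3cr1, Csf1r and Sall1) did not overlap between groups, against 1.79% of all genes. Cx3cr1 was 1.47-fold higher (log2 fold change 0.55 ± 0.068, SE; edgeR adjusted p = 4.32e-05), Olfml3 1.44-fold (0.52 ± 0.11, SE; 0.00363) and P2ry13 1.43-fold (0.51 ± 0.087, SE; 0.000708). Gpr34 rose by a log2 fold change of 0.41, Csf1r by 0.40, Siglech by 0.37 and Sall1 by 0.30 (edgeR adjusted p = 0.00476, 0.000742, 0.00871 and 0.000374). P2ry12 was close to the threshold (0.27 ± 0.079, SE; edgeR adjusted p = 0.0432), a call lost in 12 of the 19 fits without 1 library (highest 0.0995), and Tmem119 did not pass (0.23 ± 0.087, SE; edgeR adjusted p = 0.133). The median log2 fold change was 0.40 for the 9 genes and 0.0028 for all genes, and 9 of 9 members against 51% of all genes were above 0. With processing group as a factor 8 of 9 were again called, against 4.5% of all genes.

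The steps that make up this difference were unequal among the members. P2ry12 and P2ry13 gave most of it between young and old control (log2 fold changes 0.24 and 0.41) and little between old control and old anti-miR-mix (0.034 and 0.11). Csf1r and Gpr34 showed the opposite division, with 0.079 and 0.10 for age and 0.32 and 0.31 for the inhibitors. The difference between these steps was not tested. The genes with a seed match had log2 fold changes after the inhibitors of 0.11 (P2ry13), 0.32 (Csf1r), 0.18 (Siglech) and 0.30 (Olfml3), and those without a match lay between 0.034 (P2ry12) and 0.31 (Gpr34), so the values of both sets overlapped.

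Signals that homeostatic microglia depend on were taken next. Csf1, the ligand of CSF1R, had log2 fold changes of 0.25 with age (edgeR adjusted p = 0.196) and 0.30 with the inhibitors (0.217), and rose by 0.54 in old anti-miR-mix against young mice (edgeR adjusted p = 0.00124). Il34, its other ligand and largely neuronal, had estimates of -0.091, -0.011 and -0.10 in the same order, and Cx3cl1, the ligand of CX3CR1, of -0.12, -0.049 and -0.17, none past the threshold. Among all 11 ligands and partners, 0 were called with age by edgeR or DESeq2 (1 higher and 1 lower at an unadjusted p under 0.05). Against old control 2 rose with the inhibitors, Tgfb1 (0.54, edgeR adjusted p = 0.027) and its receptor Tgfbr2 (0.33, 0.0477), and against young 5 of 11 rose. Of 9 microglial transcription factors, Irf8 and Spi1 rose with the inhibitors (0.74 and 0.51, edgeR adjusted p = 0.0248 and 0.0259), and 5 of 9 rose against young. With age 0 of 9 were called by edgeR (1 higher and 1 lower, Mef2c at -0.53, at an unadjusted p under 0.05), and DESeq2 called 1 lower. Mef2c and Mef2a had 128352 and 117298 reads over all libraries, against 2691 for Spi1. In bulk CA1 their reads cannot be assigned to microglia. With processing group as a factor, 0 genes of either list were called with the inhibitors, and Irf8 was called with age (0.43, edgeR adjusted p = 0.0488).

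Other genes known from homeostatic microglia had median changes close to those of the 9. Their reads over all libraries ran from 574 (Adora3) to 173756 (Sparc) and 551418 (Cst3), and reads from other cells of CA1 were not separated. Of 19 such genes 3 rose with age, Upk1b, Lag3 and Slc2a5 (log2 fold changes 1.02, 0.50 and 0.37), 4 rose with the inhibitors, among them Lag3, Fcrls and Vsir (0.66, 0.62 and 0.26), and 13 rose in old anti-miR-mix against young mice. Their median log2 fold changes were 0.20, 0.18 and 0.37, beside 0.19, 0.18 and 0.40 for the 9 members. The general microglia and macrophage markers had medians of 0.31, 0.58 and 0.81. Their estimates with the inhibitors ran from 0.015 (Coro1a) to 0.86 (Itgb2). Ptprc (CD45) had 0.78 and Aif1 (Iba1) 0.37 (edgeR adjusted p = 0.0259 and 0.169). With age 0 of 16 were called by edgeR or DESeq2 (11 at an unadjusted p under 0.05), with the inhibitors 9 and against young 15. Disease-associated microglia genes had medians of 0.31, 0.99 and 1.33, with 0 of 20 called by edgeR with age (8 at an unadjusted p under 0.05, 1 by DESeq2), 15 with the inhibitors and 18 against young. With processing group as a factor 1 of 19 other homeostatic genes, 1 of 16 general markers and 1 of 20 disease-associated genes were called with the inhibitors. With age it was 2, 11 and 6, and against young 11, 15 and 18.

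**Figure D3:**
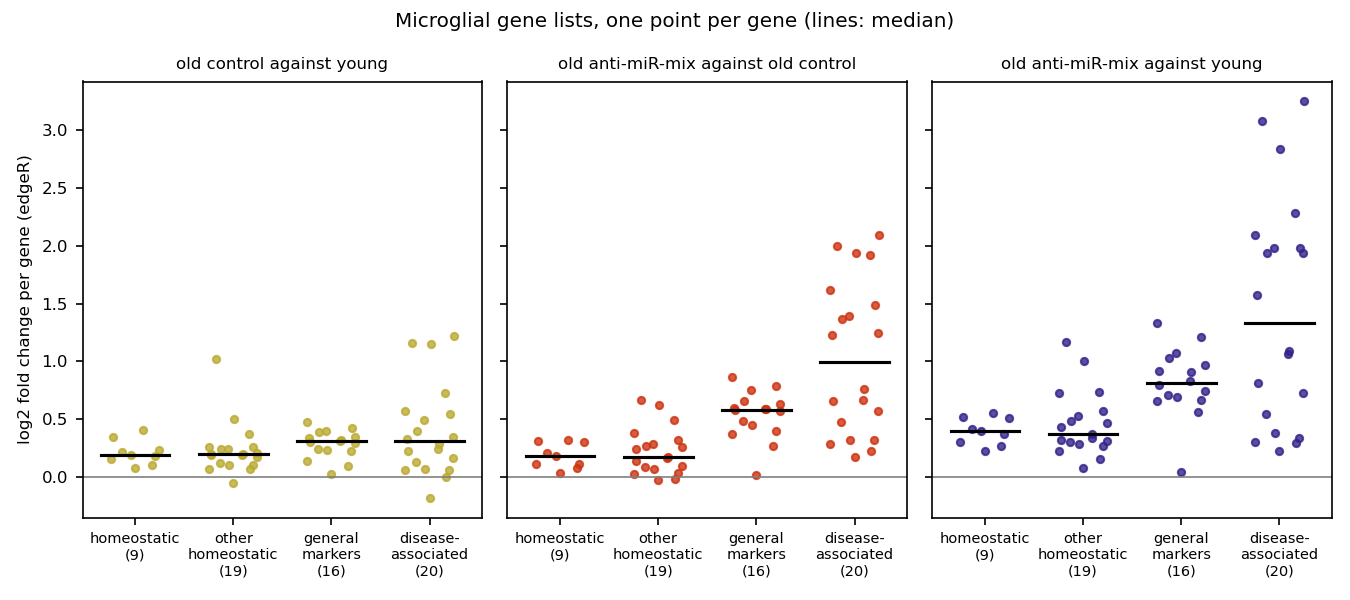
Log2 fold change per gene (vertical axis, edgeR) in the 9 homeostatic genes, 19 other homeostatic genes, 16 general markers and 20 disease-associated genes, with 1 panel per comparison and a line at each median. In old anti-miR-mix against old control the medians are 0.18, 0.18, 0.58 and 0.99.

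Averaged over the 16 general markers, young mice had 4.00 ± 0.25 log2 CPM (SD, n = 6), old control mice 4.29 ± 0.14 (SD, n = 6) and old anti-miR-mix mice 4.82 ± 0.23 (SD, n = 7). A level relative to them was taken as the log2 CPM of a gene minus that mean, in the same library. The markers changed unequally, so this level depends on the markers chosen, and no other set was tried. P2ry12 was 1.30 ± 0.24 above the markers in young, 1.25 ± 0.17 in old control and 0.75 ± 0.27 in old anti-miR-mix mice (SD). Tmem119 went from 0.50 ± 0.076 over 0.37 ± 0.16 to -0.088 ± 0.32, and Sall1 from 0.91 ± 0.24 over 0.81 ± 0.14 to 0.40 ± 0.20. Csf1r, the gene that rose in CPM, was 2.85 ± 0.12, 2.64 ± 0.097 and 2.43 ± 0.15 above the markers. From young to old control the relative mean went up for Cx3cr1 (1.75 ± 0.18 to 1.81 ± 0.11) and P2ry13 (-0.45 ± 0.16 to -0.35 ± 0.11). It went down for all other members. In old anti-miR-mix mice Cx3cr1 was at 1.49 ± 0.18 and P2ry13 at -0.76 ± 0.21. The old anti-miR-mix mean was the lowest of the groups for 9 of 9 genes.

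With counts scaled to those markers in edgeR, 6 of 9 homeostatic genes fell in old anti-miR-mix against old control (P2ry12, Tmem119, Sall1, P2ry13, Siglech and Cx3cr1), and Csf1r, Gpr34 and Olfml3 did not pass the test. Because the markers themselves rose, 76.5% of all genes were called lower on this scale and the median of all genes was -0.52, so the count of 6 is read against that share. The relative log2 fold changes ran from -0.48 for P2ry12 (edgeR adjusted p = 0.00143) to -0.21 for Csf1r (0.104). Against young 9 of 9 fell, with 87.3% of all genes lower and a median of -0.82. Tmem119 (-0.56) and P2ry12 (-0.55) had the lowest relative values and Cx3cr1 (-0.27) the highest. With age 0 of 9 were called on this scale (0 at an unadjusted p under 0.05), against 12.4% of all genes lower and a median of -0.30. In each comparison the relative value of 9 of 9 homeostatic genes lay above the median of all genes, as on the CPM scale. The scaling shifts all genes by a similar amount, so this repeats the CPM result and adds no further one.

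**Figure D4:**
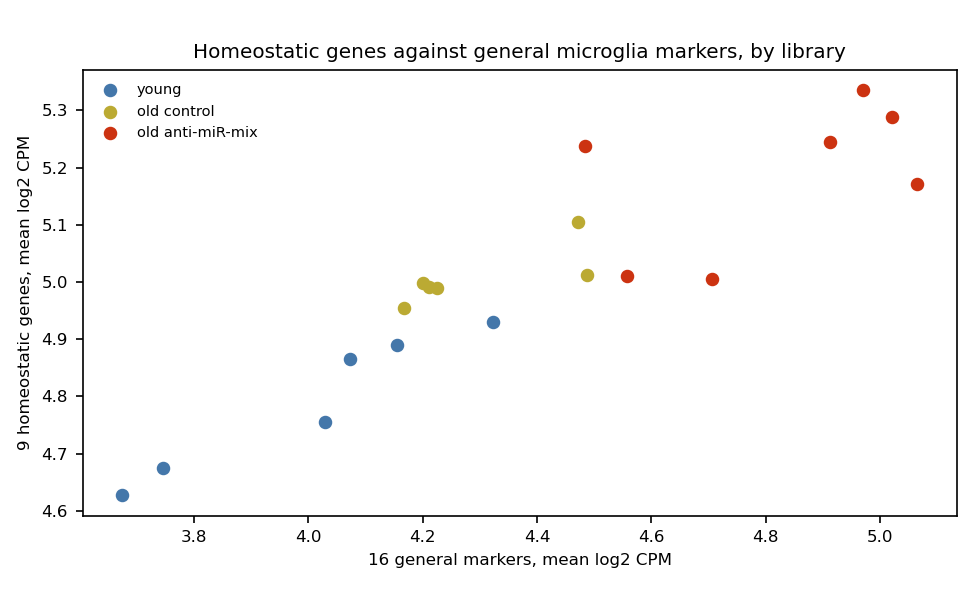
Mean log2 CPM of the 9 homeostatic genes (vertical axis) against that of the 16 general microglia markers (horizontal axis), both axes at the same scale and not starting at 0, with 1 point per library. Over all libraries the homeostatic mean spans 4.63 to 5.33 and the marker mean 3.68 to 5.07, and 6 of the 7 treated libraries lie to the right of every other library.

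The treated libraries were not uniform. Old anti-miR-mix replicates 1, 6 and 7 had a general marker mean of 4.56, 4.48 and 4.71 log2 CPM and the other 4 lay between 4.91 and 5.07. Replicates 1 and 7 also had the lowest mean of the 9 homeostatic genes (5.01 each), within the old control range of 4.95 to 5.10, and the other 5 lay above it (5.17 to 5.33). Replicate 6 combined a high homeostatic mean (5.24) with the lowest marker mean of the group. Replicates 3, 4 and 5 are those of processing group 3, which holds no old control library, so for these 3 the treatment cannot be compared within their own processing group.

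Across the 19 libraries Pearson's r between members was above 0 in 36 of 36 pairs (0.38 to 0.92, median 0.72). After group means were removed it was 0.075 to 0.82 (median 0.42), highest for Cx3cr1 with Gpr34 (0.82) and lowest for Tmem119 with Sall1 (0.075). These values are a description, since the genes were measured in the same libraries with the same scaling. Ranked by the correlation with the mean z score of the 9 genes among 15951 genes, those most alike included Pld4 (r = 0.94), Hpgds, Lpcat2 (r = 0.93 each) and Cd86 (r = 0.92), over 19 libraries.

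Markers of other cells were measured beside these results, and their part in them was not tested. Border-associated macrophage markers summed to between 24.1 and 34.8 CPM in young, 24.6 and 30.4 in old control and 26.9 and 44.3 in old anti-miR-mix mice. 1 of 10, Siglec1 (log2 fold change 1.64, edgeR adjusted p = 0.0115), rose with the inhibitors and 2 against young. With processing group as a factor 0 of 10 were called with the inhibitors (Siglec1 1.33, edgeR adjusted p = 0.132). Of 12 monocyte and neutrophil markers 7 could be tested. 0 of these were called with the inhibitors by edgeR (5 at an unadjusted p under 0.05, 1 by DESeq2), and against young 3 rose (S100a9, S100a8 and Ccr2). Their sum (94.6 to 163 CPM in young, 110 to 131 in old control, 110 to 142 in old anti-miR-mix) is mostly Fn1, which vessels and fibroblasts also express, and the neutrophil genes Retnlg, Ngp and Camp had at most 3, 4 and 4 reads in a library, Cxcr2 25, S100a8 52 and S100a9 81. Lymphocyte markers summed to between 1.67 and 4.54 CPM in young, 4.00 and 7.39 in old control and 4.41 and 10.4 in old anti-miR-mix mice. Of 12, 8 could be tested, and 1, the immunoglobulin light chain Igkc, rose with age (log2 fold change 3.35, edgeR adjusted p = 0.00312) and against young (3.74, 0.000229), with at most 236 reads in a library. With the inhibitors 0 of 8 were called by edgeR or DESeq2 (1 higher at an unadjusted p under 0.05). The B cell gene Ms4a1 had at most 7 reads. Neuronal markers had a median log2 fold change of -0.072 with the inhibitors, with 0 of 12 called by edgeR or DESeq2 (2 lower at an unadjusted p under 0.05), and 1 of 12 fell against young.

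Glial markers other than those of microglia also moved with the groups, and their part in the results was not tested. Oligodendrocyte markers had median log2 fold changes of -0.43 with age, 0.24 with the inhibitors and -0.16 against young, beside 0.19, 0.18 and 0.40 for the members. 5 of 9 fell with age, where 259 of 19286 genes in all were called lower. With the inhibitors 9 of 9 estimates were above 0, with 0 called by edgeR (7 higher at an unadjusted p under 0.05, 1 by DESeq2). Their summed level was 7358 to 11620 CPM in young, 6514 to 7716 in old control and 6621 to 9734 in old anti-miR-mix mice. Astrocyte markers summed to 5954 to 6517, 6575 to 7261 and 6287 to 7826 CPM in the same order, with median log2 fold changes of 0.097, 0.11 and 0.17. 1 of 8, S100b, rose with age (log2 fold change 0.30, edgeR adjusted p = 0.000395), and Gfap, S100b and Slc1a3 rose against young (0.77, 0.42 and 0.20). With the inhibitors 0 of 8 were called by edgeR or DESeq2 (4 higher at an unadjusted p under 0.05). Markers of blood, neighbouring hippocampal fields, endothelium with pericytes, and choroid plexus with leptomeninges (5, 8, 9 and 7 tested) had 0 calls by edgeR or DESeq2 in any of the 3 comparisons. At an unadjusted p under 0.05 there were 3 with age, 3 with the inhibitors and 1 against young.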

How the data were processed

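The authors prepared libraries from polyadenylated RNA of CA1 tissue (TruSeq RNA v2, single-end reads of 50 bases), aligned them to mm10 with STAR 2.5.2b and made the deposited counts of reads per gene with featureCounts (Subread 1.5.1), per the labels and the study's methods. The annotation and the options for overlapping and multi-mapped reads are not given in the sources used here. The authors also deposited log2 values for 18761 genes, which equalled log2(CPM + 1) after subtraction of a gene's slope times the processing group of the library (1 to 4), with differences of at most 3.4e-08. Groups were taken from the descriptions of the libraries, as the titles of young and old control libraries also begin with the name of the experiment. 0 columns of values were of no assigned library. By the labels each library is a separate sample, and nothing states whether mice shared a litter or surgery day, so p-values measure the spread between these libraries.

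Genes that reached 5 reads in 50% or more of the libraries were tested with edgeR 4.0.16 (R 4.3.3, quasi-likelihood test, TMM scaling, all 19 libraries in one fit, Benjamini-Hochberg adjustment over 19286 genes, threshold 0.05), in place of the DESeq2 test of the study. Log2 CPM used a prior count of 2. Alternatives were DESeq2 1.42.0, other scalings, no filter, pairs of groups only, libraries left out, a replicate block, processing group as a term, old control replicates 5 and 6 as 1 library, and limma 3.58.1 on the deposited log2 values. The fits were tested on simulated data. Named genes were the 9 members, Csf1, Il34, Cx3cl1, up to 4 called genes per list and comparison by size of change, and the 5 genes most correlated with the members. Some named genes are not reported here. Members and lists were chosen with earlier results of these data known. Counting error alone, from the reads per library, gives a log2 SD of 0.021 (Csf1r) to 0.076 (P2ry13), which is 0.125 to 1.17 times the SD between libraries. It is as large as that SD for Tmem119 in old control, and a main part of it for Sall1 in old control (0.831 times) and Gpr34 in young mice (0.709 times).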

Additional observations from a re-analysis of the deposited data

Results flagged for a closer look

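Siglech in old control replicate 4 measured 4.14 log2 CPM and lay apart from the other 5 old control libraries, with a gap to its neighbour of 0.667 of the range of the group. It was the 1 value set apart in this way among 27 groups of libraries (9 genes in 3 groups), and chance sets apart about 1 in 20. Without that library the log2 fold change of Siglech stayed on the same side of the threshold in each of the 3 comparisons.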

How the results depend on the processing

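Each result was recomputed in 19 fits that left out 1 library and in 11 other settings. Apart from scaling to general markers, which is treated last, 736 of 783 values of a member in a comparison kept their direction and side of the threshold, 38 lost a call, 5 gained one and 4 changed sign. Of 9 homeostatic genes called between old anti-miR-mix and old control (1 in the report), DESeq2 gave 2, a fit of only the 2 groups 0, processing group as a factor 0, old control replicates 5 and 6 as 1 library 0, and both of these together 0. RLE scaling in edgeR, no filter, processing group as a linear term, and limma on the deposited log2 values each gave 1. Leaving out 1 library gave 0 to 2 of these calls, 1 to 3 with age and 7 to 8 against young. Over all genes, calls with age (514) became 897 with DESeq2, 323 without a filter, 305 with replicates 5 and 6 as 1 library, 223 with processing group as well, and 212 to 691 without 1 library. Those with the inhibitors (129) became 264 with DESeq2, 48 with only 2 groups, 9 with processing group as a factor, and 93 with it as a linear term. They became 33 with replicates 5 and 6 as 1 library, 6 with this and processing group as a factor, and 23 to 247 without 1 library. The sign of P2ry12 with the inhibitors turned without old control replicate 1 or old anti-miR-mix replicate 5 (range -0.0023 to 0.076), and that of Tmem119 with processing group (-0.0048, and -0.019 with replicates 5 and 6 as 1 library). The cause was not tested.

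Whether replicate numbers pair the libraries is not known. The deviations of same-numbered libraries correlated at -0.17 to 0.21 in 18 pairs, 6 of them above 0.1. Differently numbered pairs were not computed, so these values cannot decide it. With a replicate block, 4 members were called with age, 2 with the inhibitors and 8 against young, beside 651, 249 and 1192 of 19286 genes in all.

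Scaled to the general markers, 0, 6 and 9 members were called in the 3 comparisons, all of them lower, and 2436, 14838 and 16951 genes in all, as the construction of the scale makes genes fall where the markers rise. The log2 fold changes that turned were, with age, P2ry12 -0.065, Tmem119 -0.12, Csf1r -0.21, Sall1 -0.11, Siglech -0.099, Gpr34 -0.19 and Olfml3 -0.058. With the inhibitors they were P2ry12 -0.48, P2ry13 -0.40, Tmem119 -0.44, Cx3cr1 -0.32, Csf1r -0.21, Sall1 -0.41, Siglech -0.34, Gpr34 -0.22 and Olfml3 -0.23. Against young they were P2ry12 -0.55, P2ry13 -0.30, Tmem119 -0.56, Cx3cr1 -0.27, Csf1r -0.42, Sall1 -0.52, Siglech -0.43, Gpr34 -0.42 and Olfml3 -0.28.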
